A study of Sus scrofa with 226 samples.

Results

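The comparison sets depolarised against hyperpolarised sensory neurons from pig dorsal root ganglia. The members were chosen by the resting membrane potential recorded from each neuron before its RNA was collected. Within each of 10 animals the neurons were split at the animal's own median, and those above it formed the depolarised group while those at or below it formed the hyperpolarised group. A resting potential was given for 89.8% of the neurons of the series, and the other 23 neurons entered neither group. The depolarised group held 100 neurons and the hyperpolarised group the remaining 50.7% of those split, with 3 to 17 neurons of each group per animal. All animals were wild-type pigs (Sus scrofa) aged 11 to 20 weeks, and the neurons had been in culture for 1, 2 or 3 days, with 53, 40 and 7 depolarised and 55, 32 and 16 hyperpolarised neurons at those days. Each neuron was patched, harvested with the recording pipette and a larger second pipette, and sequenced alone by Smart-Seq2, a full-length method for single cells. Gene expression and electrical recordings thus come from the same cell, after dissociation and culture, and the labels give no neuron types.

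The resting potential of a neuron is set by the balance of ions leaking through its membrane. Two-pore-domain potassium channels of the KCNK family carry an outward leak that holds the membrane negative, the NALCN complex carries an inward sodium leak, and HCN channels open on hyperpolarisation and pull the membrane back up. The sodium-potassium pump keeps the ion gradients on which these currents run and itself moves net positive charge outward. In sensory neurons a more positive resting potential is known to bring the membrane closer to firing threshold while leaving fewer voltage-gated sodium channels available to open.

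Depth and marker levels overlapped between the groups. A depolarised neuron held between 113649 and 3998626 total counts (median 685372), and a hyperpolarised neuron between 109726 and 5506278 (median 735043). The summed level of 7 general neuronal genes had a median of 14510 CPM (counts scaled to a common library total) in depolarised and 15755 CPM in hyperpolarised neurons, which places neuronal RNA in both. The summed macrophage markers had medians of 115.8 and 87.7 CPM and the summed Schwann cell markers medians of 994 and 1031 CPM. Of 32 measures of depth, gene number, mitochondrial share and marker lists, 0 passed a two-sided exact sign-flip test over animals at an adjusted p of 0.05 or at an unadjusted one (smallest adjusted p = 0.812).

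Resting potentials ran from -80.5 to -29.4 with a median of -58.2 over all split neurons. The table states no unit for any recorded column, and values are given as deposited. Depolarised neurons lay between -62.22 and -29.4 with a median of -51.3, and hyperpolarised neurons between -80.5 and -51.0 with a median of -63.6. The groups overlap over this stretch because the split was made inside each animal, and the animals' medians ran from -62.9 in animal 8 to -51.0 in animal 5. Averaged per animal, the depolarised group rested at -50.8 ± 2.99 and the hyperpolarised group at -63.8 ± 2.77 (SD, n = 10 animals). This separation is the rule itself and was not tested.

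The split passed through neighbouring values in most animals. In animal 6 the last depolarised neuron rested at -59.3 and the first hyperpolarised neuron at -59.4, and in animal 10 the corresponding values were -56.9 and -57.0. The widest gap at the split was in animal 1, between -52.4 and -54.5. Resting potentials had medians of -58.1, -57.2 and -61.1 at days 1, 2 and 3. The depolarised share was 49.1% at day 1, 55.6% at day 2 and 30.4% at day 3, and the culture day was a factor in the comparisons that follow.

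**Figure D1:**
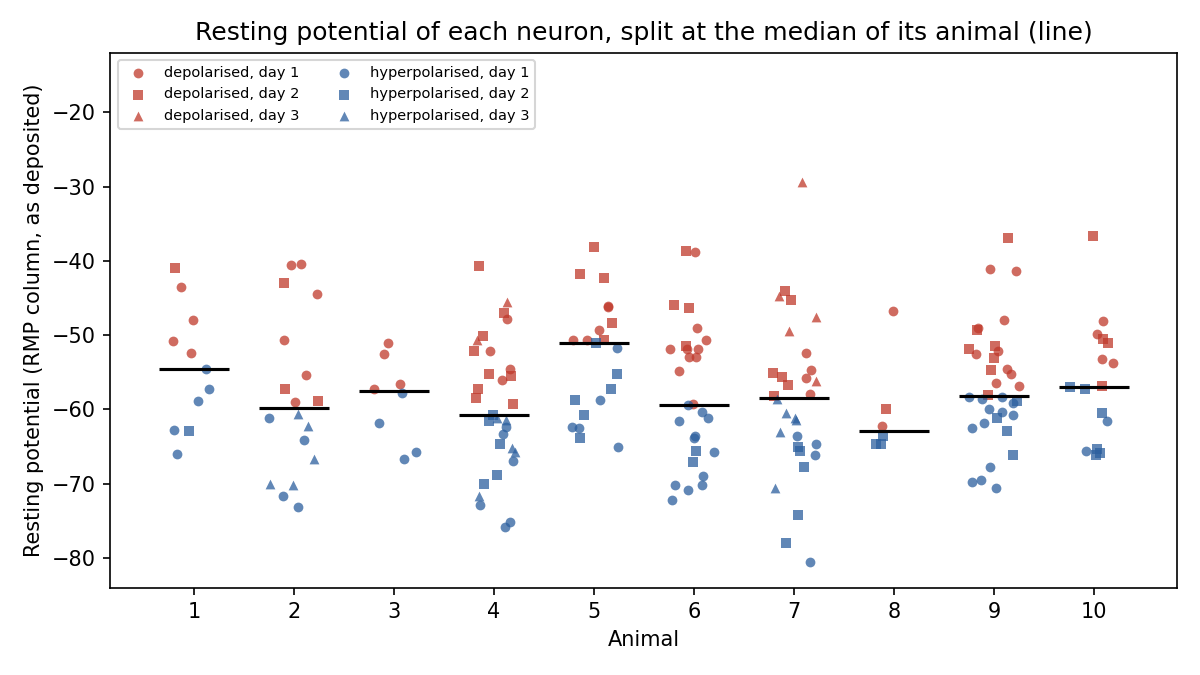
Resting potential of each split neuron (vertical axis, as deposited) by animal (horizontal axis), coloured by group and shaped by culture day, with the line at the animal's median. The medians sit between -62.9 and -51.0, and animals 3 and 8 contribute only 8 and 6 neurons.

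The potential held before the evoked action potential was close to -60 in both groups. The column for it averaged -60.5 ± 0.94 in depolarised and -60.1 ± 0.60 in hyperpolarised neurons (animal means, SD, n = 10). This column is named for a membrane potential, so it was described and not tested. The labels do not say which of the other columns were taken from this held potential and which from rest.

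A column named pA_start, by its name a current, went with the resting potential. Its animal means ran from -296 to -23.3 with a median of -85.9 in the depolarised group and from -36.4 to 76.7 with a median of 20.9 in the hyperpolarised group. Of the neurons resting above -60, 71.2% had a value below 0, 21.2% had 0 and 7.63% had a value above 0. Of the 85 neurons resting at or below -60, 57 had a value above 0, 17 had 0 and 11 had a value below 0. In most neurons the sign followed the side of -60 on which the cell rested, and the column is not a measure apart from the resting potential. A second current column, pA_threshold, equalled pA_start plus the rheobase within 1 in 98.03% of neurons and carried the same dependence.

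The recorded columns were compared by taking the difference between the groups within each animal and culture day and testing the animals' differences with a two-sided exact sign-flip test. With 10 animals the smallest p this test can give is 0.00195. Over all 334 columns that could be tested, 297 of them single pulses from series of 75 pulses, 0 passed an adjusted p of 0.05 (0.0% of columns), while 70 had an unadjusted p below 0.05 (21%). Even at a p of 0.00195 a column can pass over 334 columns only if many others share that p. Failing there thus says little about a single column. In an alternative chosen after the data had been seen, each pulse series was represented by its first and last pulse, which left 42 columns. Of these 4 passed (9.52%), namely pA_start, the raw and smoothed maximum slope of the action potential, and the minimum of the afterhyperpolarisation. An unadjusted p below 0.05 was reached by 13 of the 42 (31%). With both current columns left out, the 3 others had an adjusted p of 0.026 over 40 columns. Leaving out animal 8, whose day-adjusted difference rests on 1 depolarised neuron, raised the number passing from 4 to 7.

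The upstroke of the action potential was less steep in depolarised neurons of the same animal, a difference that passed over the 42 columns but not over all 334. The raw maximum slope, the fastest rate of voltage rise, had animal means from 115.6 to 173.1 with a median of 135.5 in the depolarised group and from 143.6 to 182.1 with a median of 159.5 in the hyperpolarised group. The ranges overlapped, but the difference within animals ran from -45.8 to -4.61 and was below 0 in 10 of 10 animals. Its mean was -21.8 ± 14.2 (SD, n = 10, exact p = 0.00195, adjusted p = 0.163 over 334 columns and 0.0205 over 42). The smoothed slope, a second estimate of the same rise, averaged 80.4 ± 6.52 against 88.4 ± 4.54 and was also lower in 10 of 10 animals, with a difference of -8.42 ± 4.76. Ranked within animals, the raw slope had a mean Spearman correlation of -0.40 ± 0.20 (SD, n = 10 animals) with the resting potential, below 0 in 10 of 10 animals, given as a description of neurons that share an animal.

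The afterhyperpolarisation, the dip in potential that follows an action potential, reached a less negative minimum in depolarised neurons, again past the threshold over the 42 columns only. Animal means ran from -76.0 to -69.7 with a median of -72.8 in the depolarised and from -76.7 to -72.3 with a median of -75.6 in the hyperpolarised group. The difference within animals was 3.10 ± 3.00 (SD, n = 10) and above 0 in 10 of 10 animals, with the same exact p of 0.00195 and adjusted p of 0.0205 over 42 columns. Animal 8 had the highest difference, 10.2, and without it the mean was 2.31. With medians in place of means and no day factor the difference was 1.41 (exact p = 0.105), and with the split at the median over all neurons it was 2.45 (exact p = 0.0703), so it did not pass under either.

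When only neurons with low OSMR were kept, 0 of the 42 columns passed, 0 passed with day 1 alone, and 2 passed without the neurons highest in macrophage markers. OSMR is the oncostatin M receptor, a marker of a C-fibre class of itch-sensing neurons, and 63.5% of the split neurons were low in it, below 5 log2(CPM + 1). The differences in slope and afterhyperpolarisation kept their sign among OSMR-low neurons and at day 1. The raw slope differed by -15.8 among OSMR-low neurons and by -15.4 at day 1, and the afterhyperpolarisation minimum by 2.62 and 2.67. Among OSMR-low neurons the exact p was 0.109 for the raw slope, 0.0664 for the smoothed slope and 0.0703 for the afterhyperpolarisation minimum. For pA_start it was 0.0039 there. Each subset leaves fewer neurons per animal than the full comparison. At day 1 animal 8 had no hyperpolarised neuron, and the smallest exact p possible was 0.0039. The smoothed slope, the afterhyperpolarisation minimum and pA_start were at that floor at day 1 without passing, and the raw slope had an exact p of 0.0508.

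**Figure D2:**
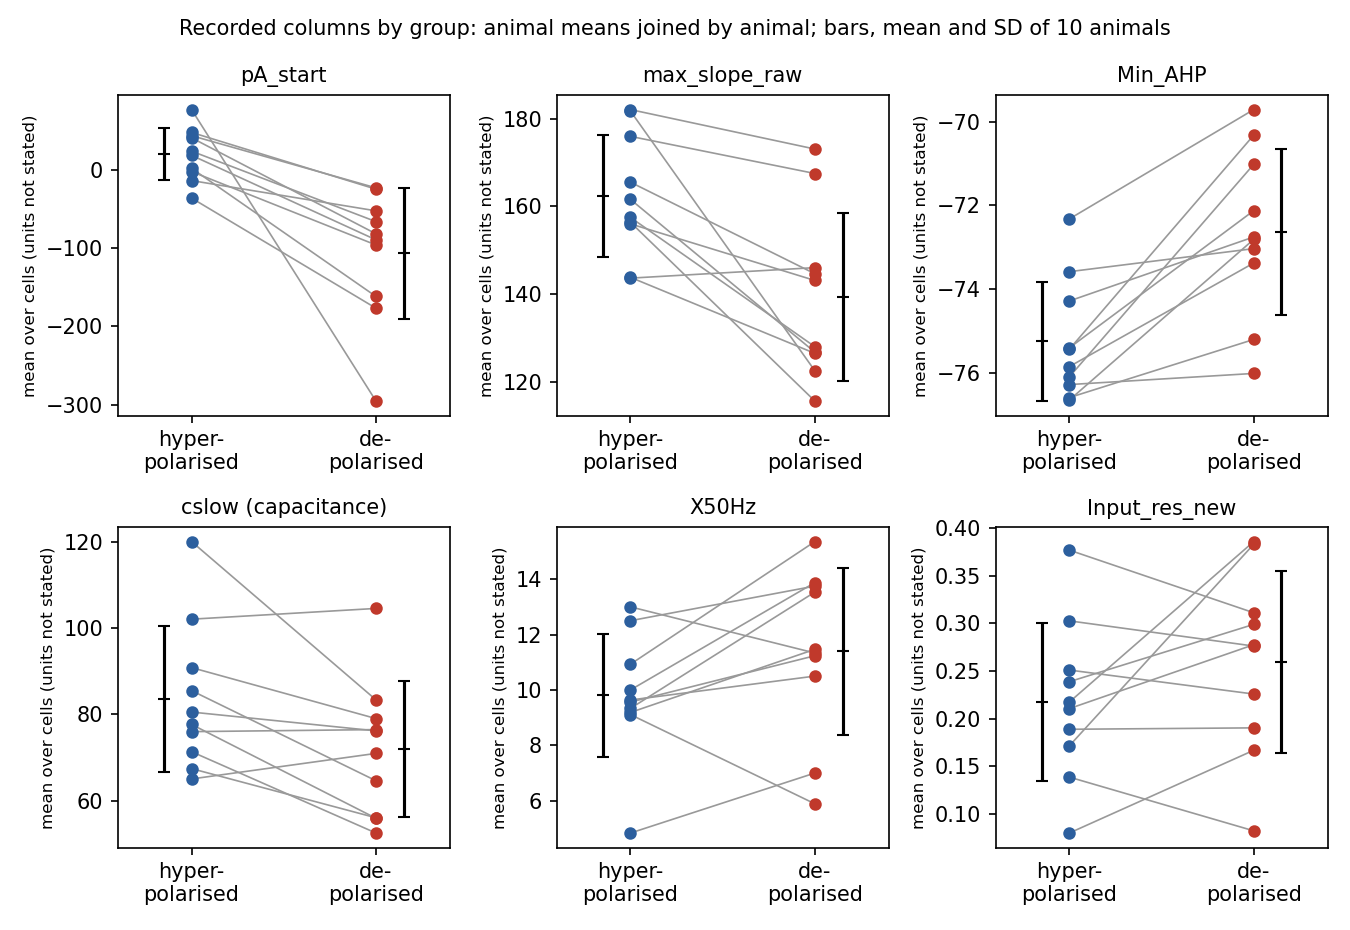
Animal means of 6 recorded columns (vertical axes, units not stated) in the hyperpolarised and depolarised groups (horizontal axes), with lines joining the groups of one animal and bars showing the mean and SD of 10 animals. Before adjustment for culture day, pA_start is lower in 10 of 10 and the raw slope in 9 of 10 depolarised groups, the afterhyperpolarisation minimum is higher in 10 of 10, and input resistance is higher in 6 and lower in 4.

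Membrane capacitance, a measure of membrane area, and the columns named for stimulation at 50 and 100 Hz had an unadjusted p below 0.05 but did not pass. The capacitance column averaged 71.98 ± 15.7 in depolarised and 83.7 ± 16.9 in hyperpolarised neurons, with a day-adjusted difference of -12.4 ± 12.98 that was below 0 in 9 of 10 animals (exact p = 0.0117, adjusted p = 0.0984 over 42 columns). The diameter column, with a difference of -1.48 ± 4.24, was lower in 7 of 10 animals (exact p = 0.309). The 50 Hz column averaged 11.4 ± 3.03 against 9.81 ± 2.23 and was higher in 8 of 10 animals (exact p = 0.0254, adjusted p = 0.133). The 100 Hz column averaged 6.21 ± 1.71 against 5.22 ± 1.22 and was higher in 9 of 10 (exact p = 0.0234, adjusted p = 0.133). The peak of the action potential averaged 46.55 ± 4.21 against 48.3 ± 4.75 and was lower in 8 of 10 animals (exact p = 0.0391, 0.149 after adjustment).

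Of the 70 columns with an unadjusted p below 0.05, 56 came from one series of 75 pulses, ADS_RT_ABS, which was recorded in both groups of 7 animals. Its first pulse averaged 3.47 ± 0.41 in depolarised and 3.94 ± 0.55 in hyperpolarised neurons and was lower in 7 of 7 animals (difference -0.45 ± 0.28, exact p = 0.0156, the smallest 7 animals allow). The last pulse averaged 3.71 ± 0.55 against 4.19 ± 0.68 and was lower in 6 of 7 (exact p = 0.0469). Pulses of one series are repeats on the same cells and count as one observation, and among OSMR-low neurons both differences were above 0, at 0.02 and 0.14.

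Input resistance, the column that bears most directly on a leak, gave no difference that passed. Neither did rheobase or the threshold and duration of the action potential. Input resistance, which is high where few channels are open at rest, averaged 0.260 ± 0.095 in depolarised and 0.218 ± 0.083 in hyperpolarised neurons. It was higher in 5 and lower in 5 animals after adjustment for day, with differences from -0.160 to 0.202 (exact p = 0.684). Rheobase, the smallest current that evokes an action potential, averaged 160 ± 77.03 against 150.5 ± 39.6 (exact p = 0.512). The threshold of the action potential was -43.26 ± 2.03 against -44.55 ± 3.33 (exact p = 0.297) and its duration 3.36 ± 0.66 against 3.19 ± 0.43 (exact p = 0.498). The spread between animals in these columns was wider than the mean difference, so a difference of either sign was within it.

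Spontaneous activity was recorded in 21 of 100 depolarised neurons and in 7 hyperpolarised neurons (6.80%). After adjustment for day the share was higher in 6 animals, lower in 2 and equal in 2, with a mean difference of 0.13 ± 0.24 as a fraction of cells (SD, n = 10, exact p = 0.133, adjusted p = 0.287). The mean difference was smaller than the spread between animals. Differences between day 1 and day 2 could be tested in 6 animals. The smallest exact p, 0.0313, belonged to the subthreshold slope column subthresh_slope_0.5 (adjusted p = 0.928). That p is the smallest 6 animals allow, and a column could pass after adjustment only if many others shared it. The test thus cannot decide whether the difference between the groups changes with culture day.

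For genes, counts were summed over the neurons of one animal, culture day and group, which gave 38 sums of 2 to 13 neurons. Of 12754 genes tested with edgeR's quasi-likelihood test, 0 passed an adjusted p of 0.05 (0.0%, smallest adjusted p = 0.9997). An unadjusted p below 0.05 was reached by 533 genes (4.18%), 1.47% of all genes being higher and 2.71% lower in depolarised neurons, while the threshold alone gives 637.7 genes. DESeq2 called 4 genes, all lower (0.0314%), and had 878 genes at an unadjusted p below 0.05 (6.88%). limma on the animals' differences called 0 and had 266 (2.09%). It used the mean of log2(CPM + 1) over neurons, so depth did not weight the neurons, and each animal counted equally. Its values are given below as equal weight per neuron, which holds within an animal only. Weights and scale both differ from the sums, and the source of changes between them was not tested. The limma median over all genes was 0.10 log2 units, with 8187 genes above and 4567 below 0. In edgeR 6281 were above and 6473 below. Values with equal weight per neuron are to be read against that shift. The difference of the contrast between day 1 and day 2 was called for 0 of 12920 genes, with 265 at an unadjusted p below 0.05 (2.05%).

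Among the leak, HCN and pump genes, 43 were listed, 30 had an identifier with that symbol, and 14 passed the filter on low counts. Of these 14, 0 passed the adjusted threshold and 1 had an unadjusted p below 0.05, beside 4.18% of all genes in either direction. Their median log2 difference was -0.14, beside -0.01 over all 12754 genes, with 6 above and 8 below 0. In 6 of the 14 the 95% interval lay within 1 log2 unit of 0 on both sides, and in the others it reached further. The 16 members under the filter had a read in 0% to 31% of depolarised and 0.971% to 27.2% of hyperpolarised neurons and at most 2.38 CPM on average. They were KCNK3, KCNK4, KCNK5, KCNK6, KCNK9, KCNK10, KCNK13, KCNK15, KCNK16, KCNK17, NALF2, HCN2, HCN3, HCN4, ATP1B4 and FXYD3. FXYD3, a regulator of the pump, had a read in 0 of 100 depolarised neurons. If neurons were independent, that would allow a share of up to 3% with a read, at 3 counts for a count of 0. Neurons of one animal are not independent, so this share describes the pooled neurons only.

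**Figure D3:**
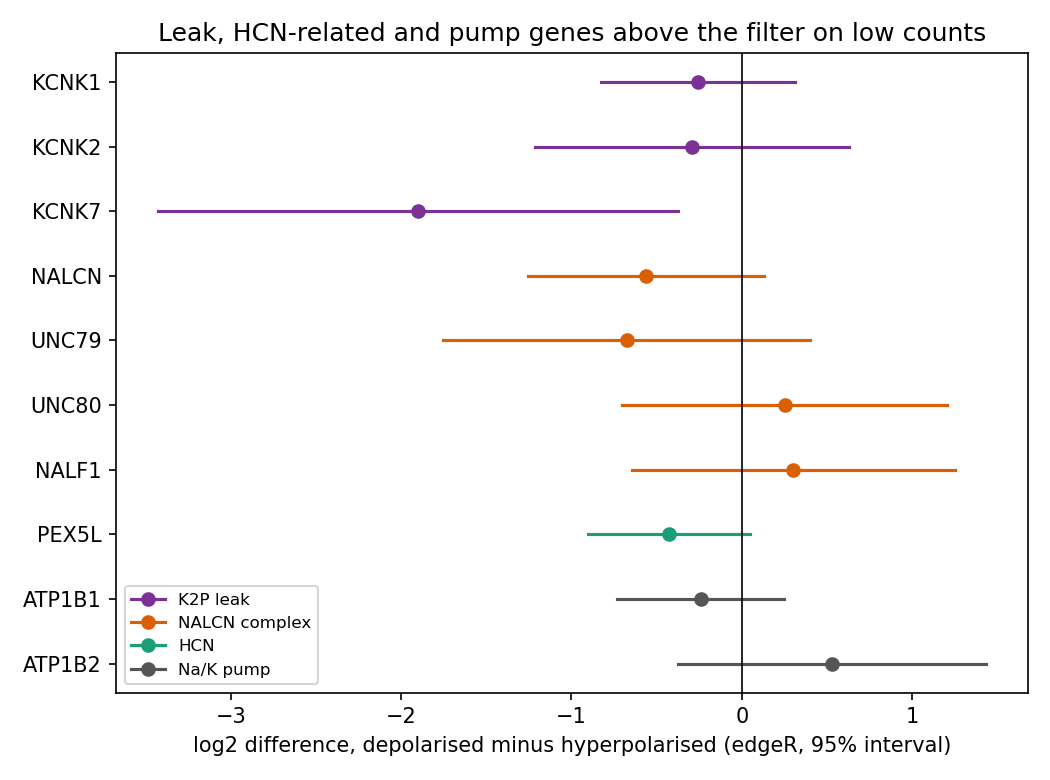
Log2 difference, depolarised minus hyperpolarised (horizontal axis), of 10 leak, HCN-related and pump genes that passed the filter (vertical axis), with 95% intervals from edgeR and colours for the 4 families. The interval of KCNK7 alone lies to one side of 0, from -3.43 to -0.38.

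Of the potassium leak channels, KCNK1 and KCNK2 were read in most neurons. KCNK1, known as TWIK-1, had a read in 86% of depolarised and 88.3% of hyperpolarised neurons. Its level in the sums ran from 2.91 to 5.50 log2 CPM with a median of 3.91 in depolarised and from 1.79 to 6.16 with a median of 4.08 in hyperpolarised groups, and the difference was -0.25 ± 0.28 (SE, edgeR p = 0.370). KCNK2, the mechanically gated TREK-1, ran from -1.31 to 7.14 with a median of 4.83 and from 2.94 to 7.71 with a median of 5.11, with a difference of -0.29 ± 0.45 (p = 0.522) that was 0.79 among OSMR-low neurons. A level of -1.31 on this scale is that of a sum with 0 counts. The groups overlapped for both channels, and 2 of 19 depolarised but 0 of 19 hyperpolarised sums had KCNK2 below 0.

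KCNK7, a family member for which no current of its own is known, had the one unadjusted p below 0.05, with a difference of -1.90 ± 0.75 (edgeR p = 0.0162, adjusted p = 0.9997). It was found in 23% of depolarised and 25.2% of hyperpolarised neurons, with a mean of 4.77 and 5.64 CPM. Its median level in the sums was -0.83 and 2.89 log2 CPM. The equal-weight comparison of limma gave -0.11, and 4 animals were higher and 6 lower.

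The inward sodium leak gave values on both sides of 0. NALCN, the channel itself, was read in 81% and 84.5% of neurons and ran from 0.06 to 7.99 log2 CPM with a median of 4.26 in depolarised and from 2.72 to 6.48 with a median of 4.82 in hyperpolarised sums. Its difference of -0.56 ± 0.34 did not pass (edgeR p = 0.109), and it was below 0 in 26 of 26 alternative settings, from -0.79 to -0.15. UNC79 and UNC80, large auxiliary subunits of the complex, had differences of -0.68 ± 0.53 and 0.25 ± 0.47. NALF1, which helps to bring the channel to the surface, had 0.30 ± 0.46.

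PEX5L, the TRIP8b protein that directs HCN channels to the membrane, was read in 90% of depolarised and 88.3% of hyperpolarised neurons. Its level ran from 0.99 to 7.25 log2 CPM with a median of 5.42 in depolarised and from 4.82 to 6.85 with a median of 5.76 in hyperpolarised sums, and the difference was -0.43 ± 0.23 with a 95% interval from -0.90 to 0.05 (edgeR p = 0.0778). The groups overlapped, and with equal weight per neuron the animals were split evenly, 5 higher and 5 lower.

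Of the pump, values are given for the beta subunits. They carry the pump to the surface and had -0.24 ± 0.24 for ATP1B1 and 0.53 ± 0.44 for ATP1B2. ATP1B1 ran from 5.54 to 10.05 in depolarised and from 6.47 to 9.38 in hyperpolarised sums. Its contrast differed between day 1 and day 2 by -1.27 ± 0.41 before adjustment (edgeR p = 0.0043), with 0.34 at day 1 and -0.71 at day 2, but no gene passed that test after adjustment. ATP1B2 is also expressed by glia and is itself 1 of the satellite glial markers listed here. Their summed level had medians of 303 CPM in depolarised and 251 CPM in hyperpolarised neurons, while the animal means were 542 CPM and 651 CPM and the day-adjusted difference by animal was -156.9 ± 915 CPM (SD, n = 10, exact sign-flip p = 0.887). Their part in the value was not tested.

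**Figure D4:**
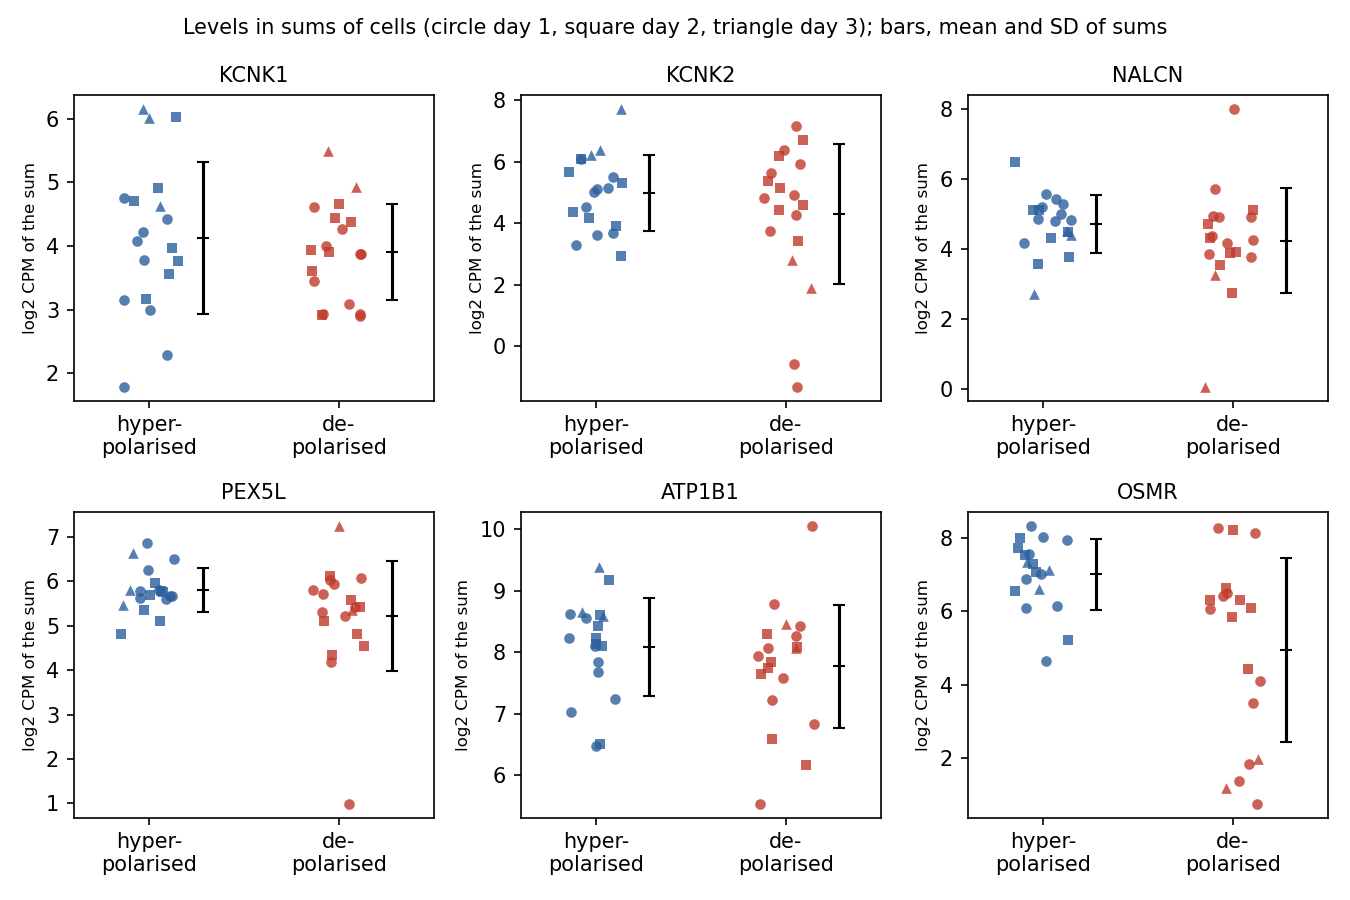
Level (vertical axes, log2 CPM) of 6 genes in the 38 sums, by group (horizontal axes), with circles, squares and triangles for culture days 1, 2 and 3 and bars for the mean and SD of the sums. The groups overlap for all 6 genes, and OSMR has a median of 6.06 in depolarised and 7.15 in hyperpolarised sums.

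Other potassium channels were read as wider lists. The inward rectifiers, which hold the membrane near the potassium equilibrium, had 5 of 16 members tested, and all 5 were above 0 with a median of 0.38 and 0 at an unadjusted p below 0.05, and among OSMR-low neurons 1 of 4 was below 0. Among OSMR-positive neurons 1 of them could be tested, KCNJ9, a subunit of G-protein-gated channels, and it had -0.92 there and 0.38 over all neurons. KCNJ11, the pore of the ATP-sensitive channel, had 0.60 ± 0.34 (edgeR p = 0.0836). KCNJ2, the classical strong rectifier, had 0.96 ± 0.65 (p = 0.146), and its contrast differed between days by -3.23 ± 1.12 before adjustment (p = 0.0072). The KCNQ, sodium-activated and calcium-activated channels had 6 tested members, 0 of them at an unadjusted p below 0.05.

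The remaining voltage-gated potassium channels and their subunits had 19 tested members with a median of -0.54, 16 of them below 0. An unadjusted p below 0.05 was reached by 4 of them, each lower, against 2.71% of all genes in that direction, and DESeq2 called 1 of the 19. That gene was DPP10, an auxiliary subunit of A-type potassium channels. It ran from -1.31 to 7.51 log2 CPM with a median of 5.06 in depolarised and from 4.5 to 7.17 with a median of 6.17 in hyperpolarised sums, a difference of -1.55 ± 0.43 (edgeR p = 9.2e-04, adjusted p = 0.9997, DESeq2 adjusted p = 0.0463). KCNIP4 and DPP6, further subunits of the same channels, had -0.54 ± 0.22 and -1.17 ± 0.52, and KCNV1, a modifier of KCNB channels, had -1.31 ± 0.58. With equal weight per neuron the 4 values were -0.14 for DPP10, -0.53 for KCNIP4, -0.19 for DPP6 and -0.04 for KCNV1.

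Voltage-gated sodium channels drive the upstroke of the action potential. The list read here holds channel genes together with auxiliary subunits and FGF genes, which form no channel of their own. Of 14 members with an identifier, 10 were tested, and 10 of 10 were below 0 in the sums with a median of -0.44. With equal weight per neuron 3 of 10 were below 0 with a median of 0.16. None passed, and 2 had an unadjusted edgeR p below 0.05, each lower, against 2.71% of all genes in that direction. SCN9A, the Nav1.7 channel of nociceptors, ran from 6.01 to 8.46 log2 CPM with a median of 7.28 in depolarised and from 6.64 to 8.79 with a median of 7.54 in hyperpolarised sums, a difference of -0.50 ± 0.16 (edgeR p = 0.0037, adjusted p = 0.9997), and it was 0.35 with equal weight per neuron. SCN11A, Nav1.9, a channel that opens near rest, had -1.0 ± 0.39 (p = 0.0147) and ran from -1.22 to -0.25 over 26 settings. It was -0.59 without animal 4, -0.29 with equal weight per neuron and -0.25 among OSMR-positive neurons. SCN10A, Nav1.8, had -0.43 ± 0.34 (p = 0.213).

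**Figure D5:**
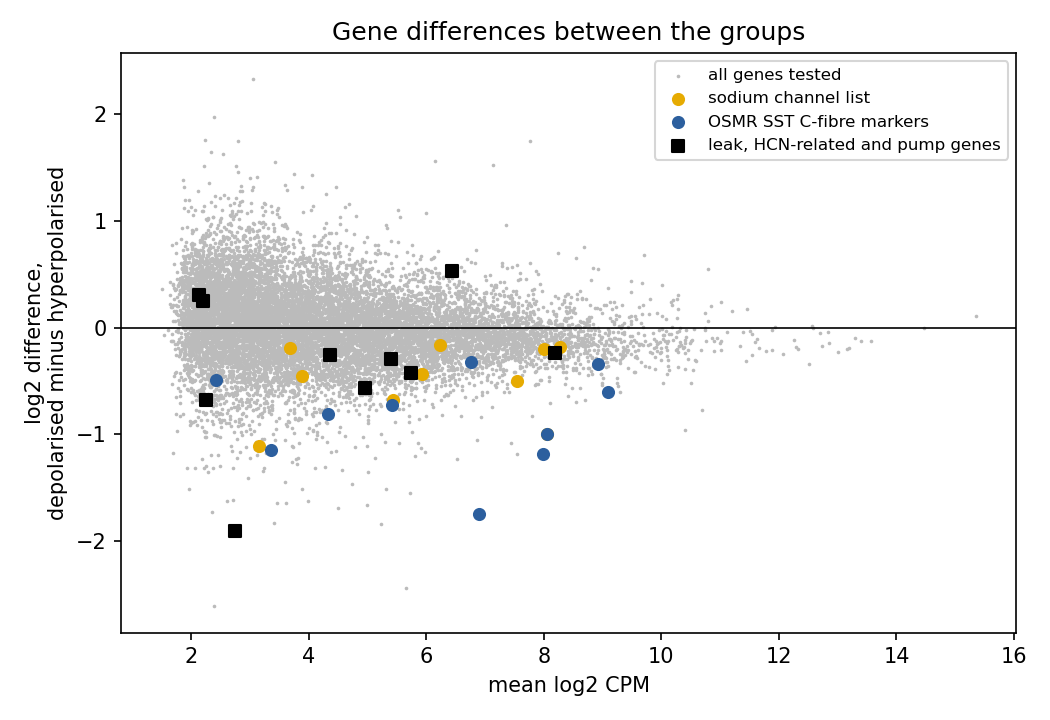
Log2 difference, depolarised minus hyperpolarised (vertical axis), against mean log2 CPM (horizontal axis) for 12754 genes in grey, with the same 10 leak, HCN-related and pump genes, the sodium channel list and the OSMR SST C-fibre markers marked. No marked gene passed edgeR's adjusted threshold. The 10 tested genes of the sodium channel list and the 10 OSMR SST C-fibre markers lie below 0 in the sums.

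The markers of the OSMR and SST expressing C-fibre class were also below 0 in the sums. All 10 were tested and 10 of 10 were below 0 with a median of -0.77, 4 of them at an unadjusted edgeR p below 0.05. In that direction 2.71% of all genes reached it. With equal weight per neuron 7 of 10 were below 0 with a median of -0.14. OSMR was read in 70% of depolarised and 74.8% of hyperpolarised neurons. In the sums it ran from 0.74 to 8.29 log2 CPM with a median of 6.06 in depolarised and from 4.65 to 8.34 with a median of 7.15 in hyperpolarised groups, a difference of -1.75 ± 0.48 (edgeR p = 9.9e-04, adjusted p = 0.9997, DESeq2 adjusted p = 0.0463). IL31RA, its partner in the receptor for the itch cytokine interleukin 31, had -1.19 ± 0.44, and JAK1, the kinase below it, had -0.61 ± 0.25. SST itself, somatostatin, had -0.32 ± 0.31 (p = 0.298). SCN11A belongs to both lists.

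The share of neurons positive for OSMR, at 5 log2 CPM or more, was 32 of 100 in the depolarised and 42 (40.8%) in the hyperpolarised group. By animal the day-adjusted difference was -6.91 ± 22.3 percentage points, lower in 6 of 10 animals (exact p = 0.340). Resting potential itself had a median of -58.1 in OSMR-low and -58.4 in the 74 OSMR-positive neurons. Among OSMR-low neurons alone 1.46% of 10769 genes had an unadjusted p below 0.05 in edgeR and 0 were called. There the median of the class markers, 6 of which could be tested, was -0.04. OSMR, by which the neurons were chosen, is among these markers, so that median is limited by the choice. The median of the sodium channel list was -0.32, with 8 of 9 tested members below 0. Among OSMR-positive neurons 6 of 10 members of that list were below 0, with a median of -0.13. A lower share of OSMR-positive neurons and a lower level per neuron cannot be told apart in sums, and the part of this share in the sodium channel values was not tested.

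DESeq2 called OSMR, DPP10, TMC3 and COCH. TMC3, of the transmembrane channel-like family, had -1.84 ± 0.50 (edgeR p = 8.4e-04) with medians of 3.91 and 5.54 log2 CPM. COCH, a secreted matrix protein, had -2.43 ± 0.71 (edgeR p = 0.0017) and was read in 38% and 44.7% of neurons. edgeR's adjusted p was 0.9997 for each of them. With equal weight per neuron the values were -0.88 for TMC3 and -0.67 for COCH. Among OSMR-positive neurons alone the edgeR values were nearer 0, at -0.51 ± 0.31 for OSMR, -0.28 ± 0.28 for DPP10, -0.40 ± 0.44 for TMC3 and -0.11 ± 0.51 for COCH, 0 of them at an unadjusted p below 0.05. These neurons were chosen by their OSMR level, which limits the OSMR difference in advance.

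General neuronal and mitochondrial genes gave smaller values. Of 6 tested general neuronal genes, 5 were below 0 in the sums, with a median of -0.22 over the 6. An unadjusted edgeR p below 0.05 was reached by 3, each lower, against 2.71% of all genes in that direction. These were UCHL1, SNAP25 and SYT1, with -0.23 ± 0.11, -0.39 ± 0.18 and -0.53 ± 0.18 in the sums. With equal weight per neuron they had 0.27, 0.12 and 0.28. Of 17 nuclear genes of oxidative phosphorylation, which supplies the ATP that the pump spends, 15 were below 0 in the sums with a median of -0.17. Of the 17, 3 had an unadjusted edgeR p below 0.05, each lower, beside the same 2.71% of all genes. With equal weight per neuron 4 were below 0 and the median was 0.32. Lists for axotomy and regeneration, cell stress and immediate early genes had 20, 14 and 7 tested members, 0 of them at an unadjusted p below 0.05, and medians of 0.14, 0.21 and 0.14. They hold genes that sensory neurons are known to switch on after their axon is severed or under stress.

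Over all genes, those with the smallest edgeR p in each direction, among genes with the same direction in at least 8 of 10 animals and a mean over 4 log2 CPM, were named, and 0 of the 16 passed. Higher in depolarised neurons were CCNL2, a cyclin of splicing complexes, with 0.80 ± 0.25 (edgeR p = 0.0032), KTN1, a kinesin receptor, with 0.50 ± 0.17, GOLGA4, a Golgi golgin, with 0.72 ± 0.27, and the helicase BLM with 1.31 ± 0.51. SVEP1, PRRC1, KAT14 and CRACD had 0.88, 0.84, 0.75 and 0.85. On the lower side stood OSMR together with TPD52, a vesicle-trafficking protein, at -0.64 ± 0.17 (edgeR p = 7.6e-04), SNTB2, a syntrophin, at -0.67 ± 0.20, and NMB, the itch-related peptide neuromedin B, at -0.96 ± 0.31. DYNC2LI1, PCMT1, RCAN3 and ETFA had -0.68, -0.30, -0.53 and -0.43. SNTB2 was lower in 9 of 10 animals and the other genes named here were in their direction in 8 of 10, where the rule itself required at least 8. The sign held in 26 of 26 settings for CCNL2, KTN1, PRRC1, KAT14, BLM, TPD52, OSMR, SNTB2, RCAN3 and ETFA. For the other genes named here it held in 24 or 25.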

How the data were processed

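Single neurons were patched, harvested and sequenced by Smart-Seq2, per the labels' protocols, and bcl2fastq 2.20 is listed in the submitters' processing notes. Aligner, counter, genome build and annotation were not given in the sources used here, so no coordinates are printed. The authors' deposited gene table holds estimated counts for 30420 identifiers, of which 14867 were paired with a symbol, and 52.0% of its values above 0 were not whole (tolerance 1e-06). The authors' deposited cell table gives 1 value of another kind for each neuron and recorded column, without units, and 43 of its 269 lines belong to no sample used here. Smart-Seq2 as labelled gives no molecular identifiers and no strand, so counting error understates the spread and antisense partners were not separable.

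The members, gene lists and tests were chosen with earlier results of these data known. Neurons were split at the median resting potential of their animal, and both groups come from the same animals. Counts were summed per animal, culture day and group (at least 2 cells, 38 sums, 200 cells, totals from 609376 to 17325508), rounded, and tested with edgeR 4.0.16 under R 4.3.3 (TMM, filterByExpr, quasi-likelihood test, animal as a block and day as a factor, 25 residual degrees of freedom, Benjamini-Hochberg threshold 0.05). Log2 CPM of sums used a prior count of 2. DESeq2 1.42.0 and limma 3.58.1 on the animals' day-adjusted differences of log2(CPM + 1) were alternatives. Recorded columns measured in at least 70% of split cells were compared as day-adjusted differences per animal with a two-sided exact sign-flip test. Left out were 77 columns named for a resting or membrane potential and 3 constant ones. The script was tested on simulated data. The animal pairs the groups by design, and the deviations of an animal's 2 groups correlated with a median of 0.30 (-0.03 to 0.55), best with their own animal in 7 of 10.

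Genes outside the lists were named by a rule: the 8 with the smallest p in each direction that went the same way in at least 8 of 10 animals and averaged over 4 log2 CPM. Some genes of the lists are not reported here by name, though counts and medians over a list include them. Sequences were not used here.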

Additional observations from a re-analysis of the deposited data

Results flagged for a closer look

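Among 63 sets of differences by animal, 11 held 1 animal far from the other animals by Dixon's criterion, which chance meets in about 1 in 20 groups. Each of the 11 lay in animal 2, 3 or 8, which had 18, 8 and 6 split neurons. In animal 2 pA_start differed by -469 (others -164 to -35.5), UNC79 by -3.00 (others -0.33 to 0.76), RCAN3 by 2.66 (others -1.61 to 0.29) and TRPC6 by 2.13 (others -1.46 to 0.37). In animal 3 KTN1 differed by 3.16 (others -0.87 to 0.98) and UNC80 by 2.01 (others -0.57 to 0.46). In animal 8 the minimum of the afterhyperpolarisation differed by 10.2 (others 0.266 to 4.99), the 100 Hz column by -2.0 (others 0.485 to 3.00) and the diameter by 8.45 (others -6.85 to 0.767). NALF1 differed there by 2.31 (others -0.29 to 1.05) and PRRC1 by -2.26 (others -0.17 to 1.71). Gene values are day-adjusted differences of log2(CPM + 1) between the groups of 1 animal. In animal 2 the neurons of day 3 were all hyperpolarised and those of day 2 all depolarised, and in animal 8 the 2 neurons of day 1 were both depolarised.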

How the results depend on the processing

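edgeR called 0 genes in its alternatives (other size factors, filter, day and animal terms, subsets of neurons, each animal left out). The highest number at an unadjusted p below 0.05 was 1216 of 29925 genes without the filter on low counts. The main fit had 533 of 12754. limma called 0 and DESeq2 called 4. Without the replicate block, that is, without the animal term that pairs the groups, edgeR called 0 and had 563 of 12754 genes at that unadjusted p. Of the leak, HCN and pump genes 0 were called in 26 alternatives. Over all 334 recorded columns 0 passed in the alternatives, except 2 without the replicate block (unpaired animal means). These were pA_start and pA_threshold, the current columns that are not measures apart from the resting potential. Over the 42 columns, 4 passed in the main comparison. The number was 0 with day 1 alone, where the smallest possible p was higher, and 0 with OSMR-low neurons. It was 2 without the neurons highest in macrophage markers and 2 without the replicate block. The column pA_start was among those passing in the main comparison and in 17 of 19 alternatives. These counts thus include a column that follows the split. Leaving out each animal in turn gave 4 to 7, with 7 without animal 8. The raw slope kept its sign in 19 of 19 alternatives, from -30.0 to -15.4, as did the afterhyperpolarisation minimum, from 1.41 to 4.07, which passed over the 42 columns in 12 of the 19. The cause of these changes was not tested. The 95% interval of a gene reached a median of 0.69 log2 units to either side of its value.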

Other observations

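Chloride channels and GABA receptors, which set the other large resting conductance of sensory neurons, had 23 tested members with a median of -0.27. An unadjusted edgeR p below 0.05 was reached by 2 of them, each lower, against 2.71% of all genes in that direction. Of 6 tested calcium pumps and exchangers 1 reached it. That was SLC24A2, a calcium exchanger that runs on the sodium and potassium gradients, with -1.62 ± 0.51 (SE, edgeR p = 0.0035). Among 19 tested TRP, mechanically gated, acid-sensing and P2X channel genes it was reached by 1, the cation channel TRPC6, which was also lower (edgeR p = 0.0262). Of the peptidergic C-fibre markers 8 were tested, 0 at an unadjusted p below 0.05, with a median of 0.13. The share of neurons positive for ADCYAP1, one of these markers, at 5 log2(CPM + 1) or more, was 75% in the depolarised and 61.2% in the hyperpolarised group (exact sign-flip p = 0.109). No gene of these lists passed edgeR's adjusted threshold.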
